A study of Rattus norvegicus with 23 samples.

Results

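The levels of 10 rat genes of the bone morphogenetic protein (BMP) and activin pathway were followed in acidic and control medium: the ligands Bmp2, Bmp4, Bmp6 and Inhba, the extracellular antagonists Fst and Grem1, and the genes Id1, Id2, Id3 and Smad6, which BMP signals induce. They were taken by gene symbol from a table of read counts that holds 30452 rat genes. RNA sequencing was done on 23 samples of cultured rat kidney cells, each with between 16412564 and 34250535 counted fragments. The cells were NRK-52E, an established line of normal rat kidney epithelial cells, and NRK-49F, an established line of normal rat kidney fibroblasts, each grown alone. Both lines were held without serum for 24 h and then kept for 48 h at pH 7.4 (control) or at pH 6.0 (acidified with hydrochloric acid). There were 6 NRK-52E samples at each pH, 6 NRK-49F samples at pH 7.4 and 5 at pH 6.0, and each line was split by its labels into 2 sample groups (1 and 3 for NRK-52E, 4 and 6 for NRK-49F), whose meaning is not stated. Each line stands for its cell type by a single line. The study calls its samples biological, but separate cultures are not named for them, so the p-values measure the spread between these samples, part of which may be technical.

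BMPs and activins are secreted dimers of the TGF-β family. They bind pairs of type I and type II receptor kinases, which phosphorylate Smad proteins: BMP receptors mainly Smad1, Smad5 and Smad9, activin receptors Smad2 and Smad3, and both sets enter the nucleus with Smad4. Follistatin (Fst) traps activins and, less tightly, BMPs, gremlin 1 (Grem1) traps BMP2 and BMP4, and the Id genes and the inhibitory Smad6 are classic direct targets of BMP signals. In the kidney the pathway is known for its part in nephron development, and gremlin 1 for its rise in fibrotic kidney disease.

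Levels are given as FPM, counted fragments per 1000000 fragments after TMM scaling between samples, and a level is compared only between samples of the same gene. At these depths a level equal to 3 counts lies between 0.0839 and 0.203 FPM. A gene is called when its Benjamini-Hochberg adjusted p from edgeR's quasi-likelihood test, fitted on the 14777 genes that passed a filter on low counts, is below 0.05. All 10 members passed the filter, but Inhba and Grem1 passed only through NRK-49F.

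The labelled cell types were checked against fixed marker lists. Of 12 epithelial markers, 10 were in the table and only Krt8 and Krt7 exceeded 1 FPM in NRK-52E. The epithelial cadherin gene Cdh1 was at 0.160 ± 0.0977 FPM (SD, n = 6) and Epcam at 0.00758 ± 0.0186 FPM (SD, n = 6) in NRK-52E at pH 7.4, so these defining markers were near 0. At pH 7.4 Krt7 was higher in NRK-52E (21.8 against 1.42 FPM, edgeR adjusted p = 5.10e-11), and Krt8 was higher in NRK-49F (839 against 499 FPM, adjusted p = 3.12e-05). Of 12 fibroblast markers, 10 were higher in NRK-49F at both pH values, while Col3a1 was higher in NRK-52E. In NRK-52E, 11 of the 12 fibroblast markers were called lower at pH 6.0, where 36.6% of all genes were. Among them Pdgfra, Vcam1, Twist1 and Prrx1 were low in NRK-52E at pH 7.4 already (1.83, 1.20, 0.732 and 0.897 FPM). The filter was run over the samples of both lines, so a marker could enter the count of 11 through its level in NRK-49F. The epithelial markers Krt8 and Krt7 were also called lower in NRK-52E, from 499 to 222 FPM and from 21.8 to 4.04 FPM. The summed level of the fibroblast markers in NRK-52E was 5712 to 8900 FPM at pH 7.4 and 2193 to 3549 FPM at pH 6.0. Col3a1 made up 79.9% to 90.3% of it. Without Col3a1 it was 818 to 1039 FPM and 399.5 to 503 FPM. Their part in the changes of the 10 genes was not tested. In samples of bulk RNA, fewer cells of a type and less RNA per cell cannot be told apart.

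Promoter sequences are shown for the 3 Id genes, since Id2 and Id3 were called in opposite directions in the 2 cell lines and Id1 was called in NRK-49F alone. The sequences are from RefSeq on the rat assembly GRCr8, which held 7 of the 10 members, and cover positions -250 to -41 before each gene's start, written 5′ to 3′. Capitals mark matches, on either strand, to the TATA box letters TATAAA, the CCAAT box letters CCAAT and the short Smad box GTCT.
Id1 (chr3:161671314-161671523, + strand): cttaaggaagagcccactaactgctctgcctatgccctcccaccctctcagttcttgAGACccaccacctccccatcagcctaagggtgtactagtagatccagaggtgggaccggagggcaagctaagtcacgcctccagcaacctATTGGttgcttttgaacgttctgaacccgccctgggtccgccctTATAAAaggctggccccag
Id2 (chr6:47471036-47471245, - strand): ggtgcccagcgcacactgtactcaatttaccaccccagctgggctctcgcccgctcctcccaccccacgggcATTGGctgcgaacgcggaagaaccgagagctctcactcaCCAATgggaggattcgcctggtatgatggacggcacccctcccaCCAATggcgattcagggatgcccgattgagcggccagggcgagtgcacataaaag
Id3 (chr5:153656041-153656250, + strand): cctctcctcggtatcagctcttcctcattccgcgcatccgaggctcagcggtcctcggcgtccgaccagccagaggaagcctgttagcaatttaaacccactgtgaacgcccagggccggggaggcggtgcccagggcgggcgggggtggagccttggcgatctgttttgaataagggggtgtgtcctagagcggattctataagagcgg
The Id1 stretch held a TATA box at position -59, a CCAAT box at -103 and a Smad box at -193. The Id2 stretch held 3 CCAAT boxes, at -178, -139 and -95, and the Id3 stretch held none of these motifs. Of the 33469 rat promoter stretches of this length, 10.5% held the TATA box, 30.1% the CCAAT box and 78.9% the Smad box. All stretches end at -41, so a TATA box nearer the start would be missed, in the Id genes and in these shares. These are letter matches only, and neither the GC-rich Smad element GGCGCC (held by 7% of stretches) nor the cAMP response element TGACGTCA (1.09%) was found in those 3 stretches.

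Which of these genes does acidosis regulate in each cell line? In NRK-52E, Id2 and Id3 rose at pH 6.0, while the ligands Bmp2, Bmp4 and Bmp6 and the antagonist Fst fell. The rise of Id2 and the falls of Bmp2 and Bmp4 were each called within a single sample group of NRK-52E: Id2 had a log2 fold change of 1.32 in sample group 1 and 0.04 in group 3. Inhba and Grem1 were also called lower, but at levels near 0 in this line. In NRK-49F no member rose: Bmp4, Bmp6, Id1, Id2, Id3 and Smad6 fell. Bmp4 fell 5.94-fold and Smad6 3.53-fold in NRK-49F, against 1.31-fold for Bmp4 in NRK-52E. Called members numbered 8 of 10 in NRK-52E, where 61.2% of all genes tested were called (24.7% higher, 36.6% lower), and 6 of 10 in NRK-49F, where the background was 28.9% (14.5% higher, 14.4% lower). Of the 8 members that passed the filter in each line alone, 6 were called in NRK-52E (2 higher, 4 lower) and 6 in NRK-49F (all lower). With NRK-52E fitted alone, 5 of these 8 were called, where 62.3% of all genes were, so the share of members called in NRK-52E was near the background. The median log2 fold change of the members was -0.49 in NRK-52E and -0.91 in NRK-49F, beside -0.12 and 0.00 over all genes tested. Over the 8 members that passed in each line alone it was -0.33 and -1.04. The median of all genes in NRK-52E was -0.08 with RLE scaling and -0.14 with upper quartile scaling.

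**Figure D1:**
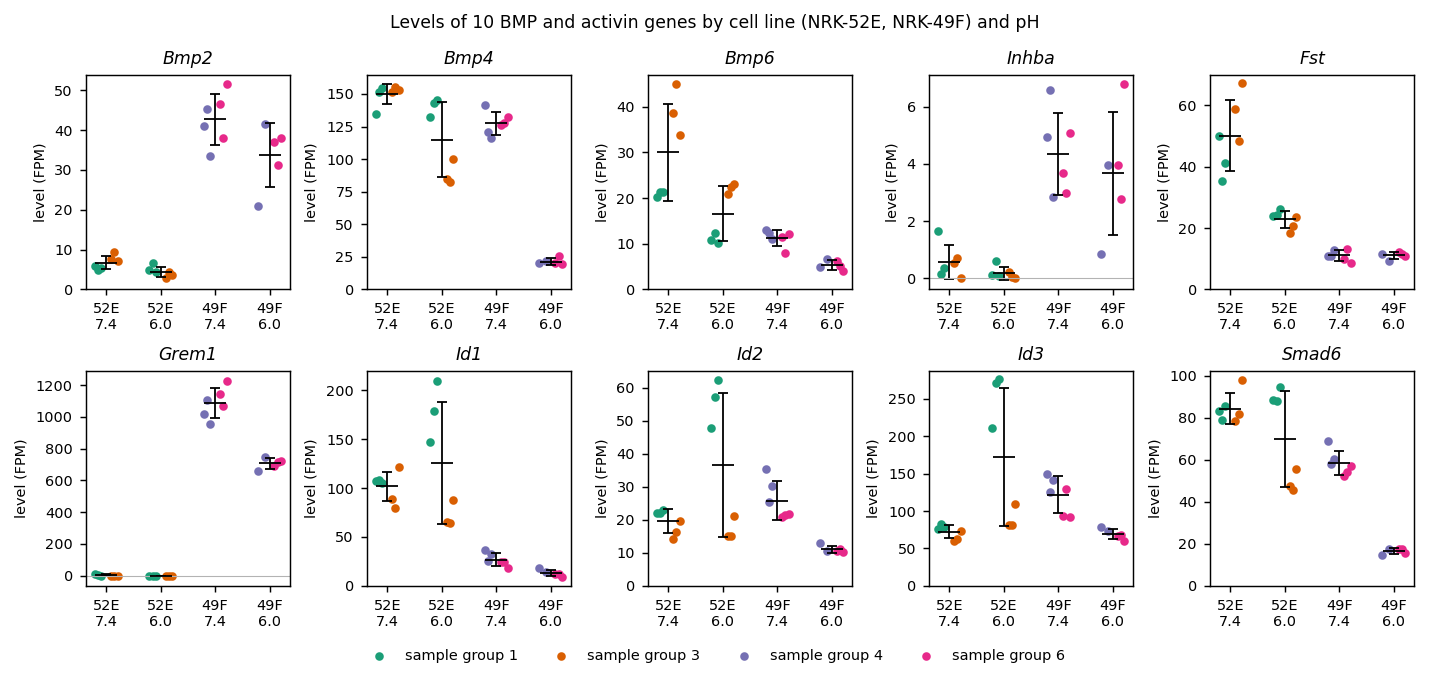
Level (FPM) of each of the 10 genes in every sample, by cell line (52E for NRK-52E, 49F for NRK-49F) and pH. Points are samples coloured by sample group and bars give the mean and SD. Bmp4 and Smad6 in NRK-49F fall to 21.4 and 16.6 FPM at pH 6.0, and the Id genes of NRK-52E split by sample group at pH 6.0.

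**Figure D2:**
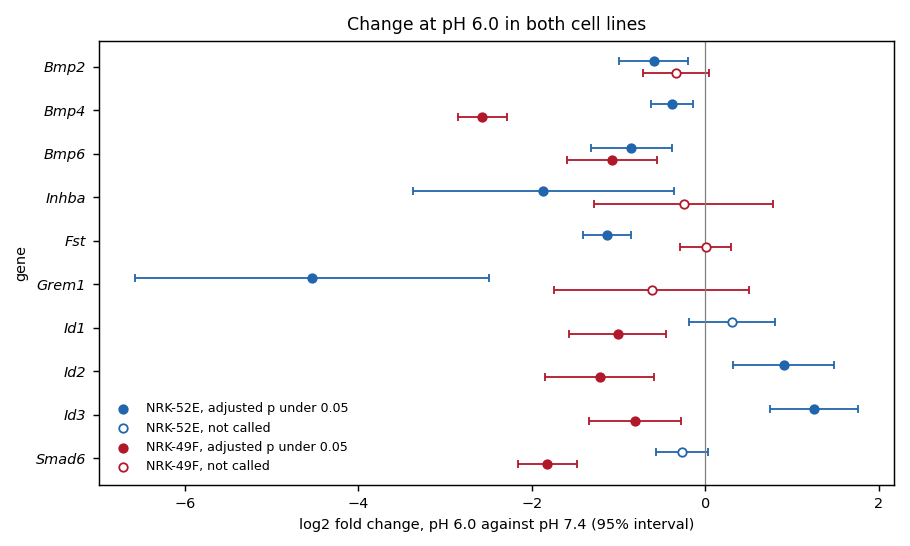
Log2 fold change at pH 6.0 against pH 7.4 in NRK-52E (blue) and NRK-49F (red) with 95% intervals from edgeR, 1 row per gene. Filled points were called. Id1, Id2 and Id3 lie on opposite sides of 0 in the 2 lines, although Id1 was not called in NRK-52E. Inhba and Grem1 lie at -1.87 and -4.53 in NRK-52E, where their levels were near 0 FPM.

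Bmp4 (ENSRNOG00000009694) encodes a ligand that signals through the BMP receptors. In NRK-49F it ranged from 116 FPM (median 127) to 141 FPM in the 6 samples at pH 7.4. The 5 samples at pH 6.0 had 20.0, 21.6, 20.4, 25.8 and 19.5 FPM. All acidic samples thus lay far below all control samples, with no overlap. The means were 127 ± 8.83 FPM (SD, n = 6) and 21.4 ± 2.56 FPM (SD, n = 5), a log2 fold change of -2.57 (SE 0.14, edgeR adjusted p = 2.15e-12). In NRK-52E it ranged from 135 (median 152) to 156 FPM at pH 7.4 and from 82.7 (median 116) to 146 FPM at pH 6.0, and the ranges overlapped. The log2 fold change there was -0.39 (SE 0.12, edgeR adjusted p = 0.00682), which was -0.30 with an adjusted p = 0.0672 when NRK-52E was fitted alone. The response differed between the lines by 2.18 (SE 0.18, edgeR adjusted p = 1.55e-09). At pH 7.4 the level did not differ between the lines beyond the test's threshold (log2 difference 0.24, 95% interval -0.01 to 0.48, adjusted p = 0.0795). That difference was called with the sample group as a block (0.25, edgeR adjusted p = 0.0396). At pH 6.0 the level was 5.35-fold higher in NRK-52E (edgeR adjusted p = 5.65e-14).

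Bmp6 (ENSRNOG00000013717), another BMP ligand, fell in both lines. In NRK-52E it lay between 20.2 (median 27.5) and 45 FPM at pH 7.4 and between 10.1 (median 16.7) and 23 FPM at pH 6.0. The spread followed the sample groups: at pH 7.4 group 1 held 20.2 to 21.4 FPM and group 3 held 33.7 to 45 FPM. Within either group no acidic sample reached a control sample. Its log2 fold change in NRK-52E was -0.86 (SE 0.23, edgeR adjusted p = 0.00217). In NRK-49F it was at 7.96 (median 11.8) to 13.1 FPM at pH 7.4, and at 4.94, 6.59, 6.19, 5.09 and 4.00 FPM at pH 6.0. The 2 pH values did not overlap, and the log2 fold change was -1.08 (SE 0.25, edgeR adjusted p = 0.00224). The responses of the 2 lines did not differ beyond the threshold (difference 0.22, 95% interval -0.47 to 0.91, adjusted p = 0.638).

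Bmp2 (ENSRNOG00000071010), a BMP ligand, was several-fold higher in NRK-49F at both pH values. In NRK-49F it ranged from 33.6 (median 43.2) to 51.5 FPM at pH 7.4, and was at 20.8, 41.6, 36.9, 31.2 and 38.1 FPM at pH 6.0. These ranges overlapped and the change did not pass the test (log2 fold change -0.34, 95% interval -0.72 to 0.04, edgeR adjusted p = 0.172). In NRK-52E it ranged from 4.95 (median 6.5) to 9.49 FPM at pH 7.4 and from 2.93 (median 4.39) to 6.55 FPM at pH 6.0, again with overlap. There it fell by 0.60 on the log2 scale (SE 0.19, edgeR adjusted p = 0.00970). Within sample group 1 the level was 5.41 ± 0.437 FPM and 5.31 ± 1.11 FPM (SD, n = 3 each), and within sample group 3 it was 8.12 ± 1.21 FPM and 3.61 ± 0.714 FPM (SD, n = 3 each). The fall was thus seen within sample group 3 (-1.17, edgeR adjusted p = 0.000286) and was not called within group 1 (-0.05, adjusted p = 0.886).

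Inhba (ENSRNOG00000014320) encodes the subunit of activin A. In NRK-49F it was low, from 2.84 (median 4.30) to 6.58 FPM at pH 7.4 and at 0.866, 3.96, 3.97, 2.78 and 6.78 FPM at pH 6.0. The log2 fold change of -0.25 (95% interval -1.28 to 0.78) was not called (edgeR adjusted p = 0.754). In NRK-52E it lay between 0 (median 0.462) and 1.65 FPM at pH 7.4 and between 0 (median 0.0968) and 0.601 FPM at pH 6.0, which is 0 to 59 counts in a sample. The fitted log2 fold change was -1.87 (edgeR adjusted p = 0.0301). The highest value came from replicate A021, and without it the log2 fold change was -1.11 (edgeR adjusted p = 0.210). The call was also lost when A024, A026, A037 or A038 was left out, with adjusted p of 0.0532, 0.0694, 0.0597 and 0.0638, and with NRK-52E fitted alone the gene did not pass the filter.

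Fst (ENSRNOG00000011631) encodes follistatin, the activin-binding protein. In NRK-52E it ranged from 35.4 (median 49.3) to 67.1 FPM at pH 7.4 and from 18.5 (median 23.6) to 26.1 FPM at pH 6.0, so that no acidic sample reached a control sample. It fell 2.19-fold (log2 fold change -1.13, SE 0.13, edgeR adjusted p = 9.91e-08). In NRK-49F it was at 8.78 (median 10.9) to 13.2 FPM at pH 7.4 and at 11.5, 9.27, 12.4, 11.5 and 10.9 FPM at pH 6.0. The log2 fold change there was 0.00 (95% interval -0.29 to 0.30, edgeR adjusted p = 0.999). The difference of the responses was -1.13 (SE 0.19, edgeR adjusted p = 5.42e-05).

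Grem1 (ENSRNOG00000026053) encodes the BMP antagonist gremlin 1, and its level was high in NRK-49F and near 0 in NRK-52E. In NRK-49F it ranged from 955 (median 1086) to 1227 FPM at pH 7.4. At pH 6.0 the samples had 660, 745, 688, 716 and 724 FPM, all below every control sample. The means of 1086 ± 95.1 FPM (SD, n = 6) and 706 ± 33.2 FPM (SD, n = 5) gave a log2 fold change of -0.62 (SE 0.54), which was not called in the fit of all samples (edgeR adjusted p = 0.429). With NRK-49F fitted alone it was -0.63 and called (edgeR adjusted p = 6.72e-05), which brings the members called in NRK-49F to 7, where 33.3% of all genes were called in that fit. DESeq2 gave no adjusted p for this gene. In NRK-52E the counts at pH 7.4 were 507, 88, 0, 39, 5 and 4, and at pH 6.0 they were 6, 0, 14, 0, 1 and 0. Of the 6 acidic samples 3 held no count and none held more than 14, and replicate A021 held most of the control counts. The fitted log2 fold change was -4.53 (edgeR adjusted p = 0.000356), and -3.05 (adjusted p = 0.00354) without A021, but with NRK-52E fitted alone the gene did not pass the filter.

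**Figure D3:**
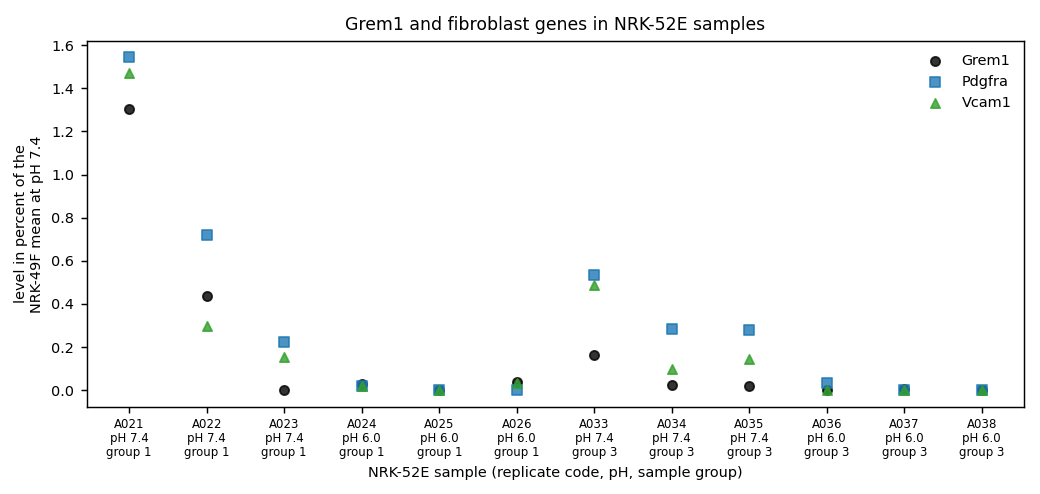
Level of Grem1 and of the fibroblast marker genes Pdgfra and Vcam1 in each NRK-52E sample, in percent of their mean in NRK-49F at pH 7.4. Replicate A021 stands highest for all 3 genes, at 1.31%, 1.54% and 1.47%.

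The Grem1 counts of NRK-52E were highest in the sample where the levels of Pdgfra and Vcam1 were highest, replicate A021. Summed over all 12 listed fibroblast markers, A021 held 5712 FPM, the lowest of the NRK-52E samples at pH 7.4. That sum is mostly Col3a1, which was higher in NRK-52E than in NRK-49F (6149 against 1212 FPM at pH 7.4). It therefore does not show how markers that are high in NRK-49F varied between these samples. In replicate A021 Grem1 was at 1.31% of the mean of NRK-49F at pH 7.4, Pdgfra, the receptor gene that marks fibroblasts, at 1.54%, and the adhesion gene Vcam1 at 1.47%. In replicate A022 they were at 0.436%, 0.720% and 0.297%, and in A033 at 0.163%, 0.535% and 0.486%. In A023 Grem1 had no count, while Pdgfra was at 0.222% and Vcam1 at 0.153%. In A034 they were at 0.0251%, 0.285% and 0.1003%, and in A035 at 0.0208%, 0.277% and 0.146%, so Grem1 lay below both. At pH 6.0 none of the 3 genes exceeded 0.0375% of that mean in any NRK-52E sample. Inhba reached 38% of its NRK-49F mean in A021. Whether these counts come from NRK-52E cells was not tested.

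Id1 (ENSRNOG00000021750), Id2 (ENSRNOG00000007237) and Id3 (ENSRNOG00000026124) encode helix-loop-helix proteins without a DNA-binding region, which bind E proteins and keep them off DNA. All 3 fell in NRK-49F. Id1 was at 17.8 (median 25.1) to 36.7 FPM at pH 7.4 and at 18.4, 14.1, 11.9, 12.6 and 9.55 FPM at pH 6.0, and only the highest acidic sample overlapped the lowest control. Its log2 fold change was -1.01 (SE 0.27, edgeR adjusted p = 0.00615). Id2 was at 20.8 (median 23.5) to 35.4 FPM at pH 7.4 and at 12.9, 10.7, 10.4, 11.1 and 10.3 FPM at pH 6.0, with no overlap. It fell by 1.22 on the log2 scale (SE 0.30, edgeR adjusted p = 0.00380). Id3 was at 91.7 (median 128) to 150 FPM at pH 7.4 and at 78.5, 73.1, 67.2, 68.6 and 60.4 FPM at pH 6.0, also without overlap. It fell by 0.81 on the log2 scale (SE 0.26, edgeR adjusted p = 0.0203).

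In NRK-52E Id2 and Id3 rose, and Id1 was not called. Id3 ranged from 60.4 (median 74.6) to 82.2 FPM at pH 7.4 and from 81.5 (median 161) to 277 FPM at pH 6.0, with an overlap of the lowest acidic and the highest control samples. It rose 2.38-fold (log2 fold change 1.25, SE 0.25, edgeR adjusted p = 0.000114). Id2 ranged from 14.2 (median 20.9) to 23 FPM and from 15.1 (median 34.5) to 62.5 FPM, overlapping at the low end. Over both sample groups it rose 1.87-fold (log2 fold change 0.90, SE 0.28, edgeR adjusted p = 0.00759), but the rise was called within sample group 1 (1.32) and not within group 3 (0.04, adjusted p = 0.846). Id1 ranged from 79.9 (median 106) to 122 FPM and from 63.9 (median 118) to 210 FPM. Its log2 fold change of 0.31 (95% interval -0.19 to 0.80) was not called (edgeR adjusted p = 0.282).

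Smad6 (ENSRNOG00000009173) encodes an inhibitory Smad that BMP signals induce and that dampens them. In NRK-49F it was at 52.4 (median 57.6) to 69.0 FPM at pH 7.4 and at 14.6, 17.7, 17.4, 17.4 and 15.8 FPM at pH 6.0. Every acidic sample lay below every control, and the log2 fold change was -1.82 (SE 0.16, edgeR adjusted p = 1.07e-08). In NRK-52E it was at 78.3 (median 82.7) to 98.1 FPM and at 45.6 (median 71.8) to 94.8 FPM, with overlap. The log2 fold change of -0.27 (95% interval -0.57 to 0.03) was not called (edgeR adjusted p = 0.116), but was called with the sample group as a block (-0.33, adjusted p = 0.0263) and without replicate A026 (-0.37, adjusted p = 0.0275).

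Did the 2 lines respond differently? The difference of the pH responses was called for 7 of the 10 genes, where 41.4% of all genes were called (16.8% with the more positive response in NRK-52E, 24.7% with the more negative). It was 2.18 for Bmp4, 1.32 for Id1, 2.12 for Id2, 2.06 for Id3 and 1.55 for Smad6 on the log2 scale, each more positive in NRK-52E. It was -1.13 for Fst. It was -3.91 for Grem1, which passed the filter only through NRK-49F. Without Inhba and Grem1, 6 of 8 were called, 5 of them more positive in NRK-52E. The edgeR adjusted p-values were 0.00507 for Id1, 0.000234 for Id2, 6.23e-05 for Id3, 4.40e-06 for Smad6 and 0.0104 for Grem1. Without A021 the Grem1 difference was -2.43 (adjusted p = 0.0460). Bmp2, Bmp6 and Inhba were not called (-0.26, 0.22 and -1.62, with adjusted p of 0.469, 0.638 and 0.150). The Inhba difference was called without replicate A025 (-2.46, adjusted p = 0.0413).

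The responses of NRK-52E also differed between its sample groups. This was tested with the interaction of pH and sample group, which was called for 7 of the 10 genes, where 10.6% of all genes were called (3.78% with the more positive response in group 3, 6.87% with the more negative). In all 7 the response of group 3 was the more negative. In sample group 1, Id1 stood at 107 ± 1.82 FPM in the control and at 179 ± 31.1 FPM in the acidic samples (SD, n = 3 each). In sample group 3 the same means were 96.8 ± 22 FPM and 72.5 ± 13.3 FPM (SD, n = 3 each). The Id1 log2 fold change was 0.75 in group 1 (edgeR adjusted p = 0.00175) and -0.42 in group 3 (adjusted p = 0.0529), and the difference was -1.16 (adjusted p = 0.00525). Id2 rose in group 1 from 22.4 ± 0.528 FPM to 55.8 ± 7.45 FPM (SD, n = 3 each), and was at 16.7 ± 2.79 FPM and 17.2 ± 3.45 FPM in group 3 (SD, n = 3 each). The log2 fold changes were 1.32 and 0.04, with edgeR adjusted p of 4.52e-07 and 0.846, and differed by -1.28 (adjusted p = 0.000531). Id3 rose in both groups, by 1.68 in group 1 and by 0.47 in group 3 on the log2 scale (edgeR adjusted p = 1.26e-08 and 0.00752). Its levels at pH 6.0 were 212, 271 and 277 FPM in group 1 and 81.8, 81.5 and 109 FPM in group 3.

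Smad6 was at 88.3, 88.1 and 94.8 FPM at pH 6.0 in sample group 1 and at 47.4, 45.6 and 55.6 FPM in group 3. Its change was 0.13 in group 1 (edgeR adjusted p = 0.304) and -0.80 in group 3 (adjusted p = 1.44e-06), so the fall was called within group 3 only, and the difference was -0.93 (adjusted p = 0.000307). Bmp4 was at 132, 143 and 146 FPM at pH 6.0 in group 1 and at 85.0, 82.7 and 100 FPM in group 3, with log2 fold changes of -0.07 and -0.78. The differences for Bmp4, Bmp2 and Fst were -0.71, -1.12 and -0.70 (edgeR adjusted p = 0.00329, 0.0332 and 0.0440). The Bmp2 difference was not called without A021, A022, A023, A025, A034, A036 or A038 (-0.95 to -1.18, adjusted p up to 0.0961). The Fst difference was not called without A022, A023, A024, A025, A026, A033, A035, A036 or A037 (-0.59 to -0.73, adjusted p up to 0.118).

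In NRK-49F no call was made for a difference between sample groups 4 and 6. The count was 0 of 10 with edgeR, 0 with DESeq2 and 0 at an unadjusted p below 0.05, beside 0 genes of all 14777 with edgeR, 10 with DESeq2 and 596 at an unadjusted p below 0.05. Within each of these groups Bmp4, Bmp6, Id1, Id2, Id3 and Smad6 were called lower. Bmp4 fell by 2.60 in group 4 and 2.55 in group 6, and Smad6 by 1.96 and 1.69 on the log2 scale, with edgeR adjusted p of 3.95e-11, 3.33e-12, 1.52e-09 and 8.09e-10.

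**Figure D4:**
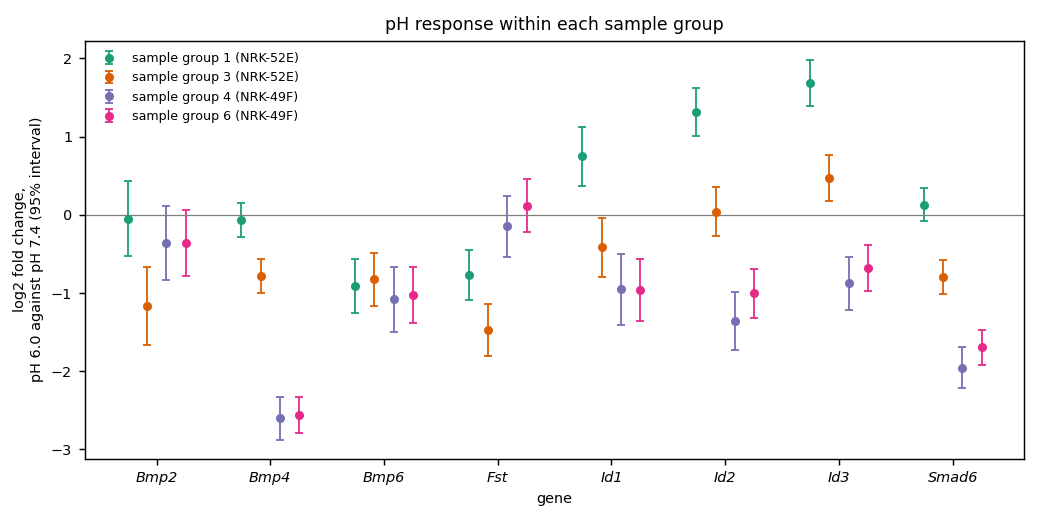
Log2 fold change at pH 6.0 against pH 7.4 within each sample group, with 95% intervals from edgeR. Shown are the 8 genes whose level was not near 0 FPM in NRK-52E. In NRK-52E, Id1 is at 0.75 in sample group 1 and -0.42 in group 3, while the groups of NRK-49F (4 and 6) stand close together.

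How do the levels differ between the lines? At pH 7.4, 8 of the genes were called, 4 higher and 4 lower in NRK-52E, where 68.8% of all genes were called (35% higher, 33.9% lower). At pH 6.0 all 10 were called, 7 higher and 3 lower, where 75.5% of all genes were (36.6% higher, 38.9% lower). Fst was 4.51-fold and Id1 3.79-fold higher in NRK-52E at pH 7.4 (edgeR adjusted p = 7.55e-13 and 3.04e-07), Bmp6 2.65-fold and Smad6 1.44-fold (adjusted p = 8.02e-06 and 0.00280). Bmp2 was 6.33-fold lower and Id3 1.69-fold lower in NRK-52E (adjusted p = 5.93e-12 and 0.00841). The other 2 genes counted as lower at pH 7.4, Inhba and Grem1, passed the filter only through NRK-49F and so had to differ. Without them 6 of 8 were called at pH 7.4 (4 higher, 2 lower) and 8 of 8 at pH 6.0 (7 higher, 1 lower). Id2 was not called at pH 7.4 (log2 difference -0.40, 95% interval -0.97 to 0.18, edgeR adjusted p = 0.213). At pH 6.0, Id1 was 9.45-fold, Smad6 4.22-fold and Id2 3.30-fold higher in NRK-52E (edgeR adjusted p = 3.01e-10, 3.99e-11 and 2.14e-05). Id3, which was lower in NRK-52E at pH 7.4, was 2.47-fold higher there at pH 6.0 (adjusted p = 8.82e-05). By mean over both sample groups, Smad6 was highest in NRK-52E at pH 7.4 and next in NRK-52E at pH 6.0. This pair did not differ beyond the threshold, and NRK-49F at pH 7.4 and NRK-49F at pH 6.0 followed. Within sample group 3, Smad6 at pH 6.0 was at 49.5 FPM, below the mean of 58.5 FPM of NRK-49F at pH 7.4. For Id1 the means ran in the order NRK-52E at pH 6.0, NRK-52E at pH 7.4, NRK-49F at pH 7.4, NRK-49F at pH 6.0. The first pair of Id1 had no called difference. In sample group 3 that pair stood in reverse order, with 72.5 FPM at pH 6.0 and 96.8 FPM at pH 7.4. NRK-52E at pH 6.0 was not tested against NRK-49F at pH 7.4.

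How much of the rest of the pathway moved? A list of 99 further genes was taken by role, of which 65 could be tested. In NRK-52E 12 were called higher and 30 lower, 64.6% of those tested beside 61.2% of all genes. In NRK-49F 5 were called higher and 25 lower, 46.2% beside 28.9% of all genes. The response differed between the lines for 30, 46.2% beside 41.4% of all genes. Of the 65, 50 passed the filter in each line alone. Among these 50, 9 were called higher and 23 lower in NRK-52E (64%), and 4 higher and 20 lower in NRK-49F (48%). The response differed between the lines for 26 of the 50 (52%). The median log2 fold change over the list was -0.31 in NRK-52E and -0.39 in NRK-49F. Of 11 other transcriptional targets tested, 7 fell and none rose in NRK-52E (36.6% of all genes fell, 24.7% rose), and 5 fell and 1 rose in NRK-49F (14.4% fell, 14.5% rose). Among these 11, Id4, Msx1 and Gata2 passed the filter only through NRK-49F. Msx1 and Gata2 are among the 7 that fell in NRK-52E, where their levels were near 0. Of 13 other extracellular antagonists and ligand-binding proteins, 8 fell and 2 rose in NRK-52E, and 6 fell and 1 rose in NRK-49F. These include the proteases Bmp1, Tll1, Tll2 and Htra1, of which Bmp1 and Tll1 cleave the antagonist chordin. Without these 4, 5 of 9 fell and 2 rose in NRK-52E, and 4 fell and none rose in NRK-49F. The falls in NRK-49F include Nog, which passed the filter only through NRK-52E.

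**Figure D5:**
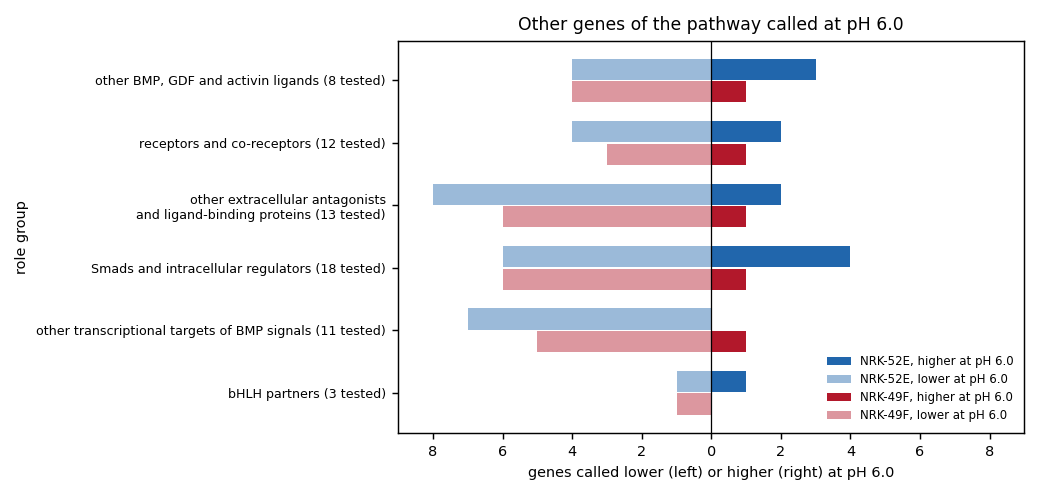
Number of the 99 other pathway genes called higher (right) or lower (left) at pH 6.0 in NRK-52E (blue) and NRK-49F (red), by role. Antagonists and ligand-binding proteins, which include 4 proteases, have 8 of 13 genes lower in NRK-52E, and the transcriptional targets 7 of 11. Of these targets Msx1 and Gata2 passed the filter only through NRK-49F.

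The genes named by rule in each role were as follows. Among ligands, Inhbb, the subunit of activin B, fell by 3.01 in NRK-52E and by 1.42 in NRK-49F on the log2 scale (edgeR adjusted p = 1.19e-11 and 5.83e-06), with 37.2 ± 3.12 FPM at pH 7.4 against 4.59 ± 2.0 FPM at pH 6.0 (SD, n = 6 each) in NRK-52E. Gdf11, a ligand close to myostatin, fell by 1.62 and by 0.51 (edgeR adjusted p = 1.82e-08 and 0.0328). The co-receptor genes Eng (endoglin) and Rgma were named through their level in NRK-49F and were low in NRK-52E, where their changes were called. In NRK-52E, Eng stood at 0.588 FPM in the control and at 1.62 FPM in the acidic samples (edgeR adjusted p = 0.00120), and at 127 and 131 FPM in NRK-49F. Rgma was at 0.832 and 0.264 FPM in NRK-52E (edgeR adjusted p = 0.00213), and at 20 and 18.2 FPM in NRK-49F.

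Among antagonists and ligand-binding proteins, Wfikkn1, which binds GDF8 and GDF11, rose by 1.88 in NRK-52E from 9.20 ± 1.32 to 33.8 ± 15.1 FPM (SD, n = 6 each, edgeR adjusted p = 5.58e-08), and was at 3.42 and 3.35 FPM in NRK-49F. Htra1, a serine protease, moved in opposite directions: it fell by 1.63 in NRK-52E and rose by 0.91 in NRK-49F (edgeR adjusted p = 5.20e-08 and 0.000354). Among the Smads, the common Smad4 rose by 0.80 in NRK-52E, from 82.2 ± 13.4 to 143 ± 29.5 FPM (SD, n = 6 each, edgeR adjusted p = 2.14e-06), and was at 77.9 and 76.9 FPM in NRK-49F. The inhibitory Smad7 fell in both lines, by 0.83 and 0.61 (edgeR adjusted p = 0.000361 and 0.0186). The target gene Msx1 was at 26.2 ± 2.59 FPM (SD, n = 6) and 17.9 ± 1.22 FPM (SD, n = 5) in NRK-49F, where the change was not called (edgeR adjusted p = 0.0967), and was near or at 0 in NRK-52E. Gata2 was below 0.31 FPM on average in NRK-52E at either pH and at 21 and 20.3 FPM in NRK-49F. Of the E protein genes that Id proteins bind, Tcf3 rose by 0.19 in NRK-52E and fell by 0.21 in NRK-49F (edgeR adjusted p = 0.0159 and 0.0322), Tcf4 fell by 1.53 in NRK-52E (adjusted p = 2.22e-06), and Tcf12 was called in neither line.

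The genes whose pattern over the 23 samples was closest to that of Id1 were Hrct1, Adamts10 and Pak1, with a root mean square difference of centred log2(FPM + 1) of 0.248, 0.352 and 0.384 among 10847 genes. By the same measure Smad6 ranked 343 (difference 0.755), Fst 489, Bmp4 799, Id2 1319 (difference 1.01) and Id3 2888 (difference 1.19). Smad6 was thus nearer to Id1 than Id2 and Id3 were. The measure takes in level differences between the lines as well as pH responses, so it does not rank likeness of the pH response.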

How the data were processed

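Poly(A) RNA of 23 samples was sequenced in read pairs. The authors deposited raw counts per Ensembl gene, without normalization. Per the paper's methods reads were mapped with HISAT2 2.1.0 and counted on exons with featureCounts, multi-mapping reads included; per the labels the genome build is rn6, while the methods name a later rat build. The strand setting is not given in the sources used here, so reads of a gene and of an overlapping antisense gene cannot be told apart. Each sample held 16412564 to 34250535 counts; floors cover counting error only, and the intervals of fold changes come from the edgeR fits. Another 13 columns matched no sample and were not used.

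The members and the gene lists were chosen with earlier results of these data known. In R 4.3.3, edgeR 4.0.16 was used: filterByExpr (minimum count 10, minimum total 15), TMM scaling, the quasi-likelihood test with a term for each of the 4 conditions, and Benjamini-Hochberg adjustment over 14777 genes at 0.05. Sample groups were tested in a model of all 23 samples with 8 terms (cell line, pH and sample group). DESeq2 1.42.0, other scalings, filters, the sample group as a block, each line alone and each replicate left out were alternatives; counts over members that pass the filter in both lines were added after seeing the data. The script was tested on simulated data. From each role of the pathway list, the 2 called genes with the largest change and a mean of at least 5 FPM were named, and all E protein genes. Promoter sequences came from RefSeq (GRCr8); figures were drawn with matplotlib.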

Additional observations from a re-analysis of the deposited data

Results flagged for a closer look

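Among 40 sets of samples (10 genes in 4 conditions), 5 held a sample set apart from the others by the gap of its value to the nearest sample; chance gives about 1 in 20. They were Bmp4 in NRK-52E at pH 7.4 (replicate A021, 134.927 FPM, the lowest), Inhba in NRK-52E at pH 6.0 (A025, 0.601 FPM), Grem1 in NRK-52E at pH 7.4 (A021, 14.2 FPM), Id2 in NRK-49F at pH 6.0 (A042, 12.9 FPM) and Smad6 in NRK-52E at pH 7.4 (A035, 98.1 FPM).

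The pH response differed between the cell lines by an interaction test in edgeR for Bmp4 (2.18), Fst (-1.13), Grem1 (-3.91), Id1 (1.32), Id2 (2.12), Id3 (2.06) and Smad6 (1.55), on the log2 scale with positive values more positive in NRK-52E. Within NRK-52E it differed between the 2 sample groups for Bmp2 (-1.12), Bmp4 (-0.71), Fst (-0.70), Id1 (-1.16), Id2 (-1.28), Id3 (-1.21) and Smad6 (-0.93), each lower in sample group 3. What the sample groups stand for is not stated.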

How the results depend on the processing

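With each cell line fitted alone, 5 of the 10 genes were called in NRK-52E (8 in the fit of all samples), where 62.3% of all genes were called: Inhba and Grem1 did not pass the filter there, and Bmp4 had an adjusted p = 0.0672. Fst in NRK-49F, which lies at 0, changed sign: -0.00839 with RLE scaling, -0.00593 with upper quartile scaling, -0.00794 with DESeq2, -0.00443 without a filter, -0.00519 with at least 10 counts in every sample, -0.00820 with the line alone and -0.149 within sample group 4; leaving out a replicate gave -0.0567 to 0.0581. Within sample groups the sign changed for Smad6 in NRK-52E (0.130 in group 1), Id1 in NRK-52E (-0.417 in group 3) and Inhba in NRK-49F (0.199 in group 6). The cause was not tested. Raw library sizes moved the level of Bmp4 in NRK-52E at pH 7.4 to 161 FPM and that of Grem1 in NRK-49F at pH 6.0 to 651 FPM. Over single genes, leaving out a replicate kept the sign and the side of the threshold of 744 values, with 21 calls lost, 2 gained and 7 signs changed; other settings kept 378, with 7 lost, 5 gained and 10 changed. Leaving out replicates for the sample-group tests was chosen after seeing the data; it left 5 to 6 of the 7 calls in NRK-52E. For the difference between sample groups of NRK-49F, DESeq2 called 10 of all genes tested and edgeR 0. No paired analysis was possible because the replicate codes are not shared between the pH values. Limits: low counts set the precision of Inhba and Grem1 in NRK-52E; the other genes had at least 56 counts in each sample.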
